A study of Homo sapiens with 12 samples.

Results

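The AP-1 transcription factors were followed at the level of mRNA in 4 stable lines derived from A549, human cells of a lung adenocarcinoma. FOS, FOSB, FOSL1, FOSL2, JUN, JUNB, JUND, ATF3, BATF3 and MAFF made up the group, and they were taken by gene symbol from the 60623 genes of the deposited count table (10 of 60623). The line called V held the vector alone, WT expressed wild-type aryl hydrocarbon receptor (AHR) with an HA tag, SA the receptor with a serine replaced by alanine (S489A), and SD the receptor with aspartate at the same position (S489D). The study used the alanine form as a site that cannot be phosphorylated and the aspartate form as an imitation of the phosphorylated site. All 4 lines were made with lentivirus and kept in hygromycin, so the control line carried the vector and the selection as well, and the endogenous AHR gene was present in all of them. Each line gave 3 libraries that the labels name as biological replicates, 12 in all. Each construct was represented by 1 line, and whether a line was a clone or a pool is not given in the sources used here, so a construct and any other difference between lines cannot be told apart.

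The 10 genes were chosen from results of these same libraries. Which values led to the choice was not recorded, so every comparison between the lines was treated as used by it. The levels and fold changes of the 10 genes are therefore given as a description, with no p-value, and the counts of genes that passed the threshold support nothing further.

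AP-1 is not 1 protein but a set of dimers. Its subunits hold a basic region, which contacts DNA, and a leucine zipper, which joins 2 subunits. Proteins of the JUN family (JUN, JUNB, JUND) can pair with each other or with proteins of the FOS family (FOS, FOSB, FOSL1, FOSL2), while FOS proteins need a JUN partner. FOS and FOSB are classical immediate early genes, transcribed within minutes of a growth factor signal and then switched off, whereas FOSL1 (FRA-1) and FOSL2 (FRA-2) rise later, last longer and lack the strong activation domain of FOS. FOSL1 is known from carcinomas as a factor of invasive and mesenchymal cell states. ATF3 is a stress-induced partner, BATF3 is best known from dendritic cells and lymphocytes, and MAFF is a small MAF protein that lacks an activation domain and pairs mainly with the NRF2 group. AHR itself belongs to another class, the basic helix-loop-helix PAS proteins, and binds its own element after a ligand has brought it into the nucleus.

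The promoters of the AP-1 genes were searched for the letters that AP-1 and the related CREB/ATF proteins are known to recognise, and the matches are shown first as the sequence beside which the mRNA values are read. Promoters of 8 of the 10 genes were found in RefSeq (GRCh38.p14), as 250 bases before and 50 after the annotated start. FOSL1 and BATF3 had no entry in the table. Of the motifs searched, the AP-1 site TGANTCA was present in FOSL2, and the cyclic AMP response element TGACGTCA in JUND and MAFF. The letters TGACNTCA, which include the cyclic AMP response element, were added after the promoters had been read, and matched JUN and ATF3 as well. Each 30-base stretch below is written 5′ to 3′ on the strand of the gene, with the match in capitals.
FOSL2: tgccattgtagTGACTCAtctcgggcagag
JUN: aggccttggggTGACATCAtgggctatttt
ATF3: cacctatgataTGACATCAtatggccactc
JUND: ggccgcccccaTGACGTCAacccacaaggc
MAFF: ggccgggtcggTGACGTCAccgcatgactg

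The FOSL2 site began at base 5, with the RefSeq start as base 1 (chr2:28392851-28392880, plus strand), inside the transcribed part of the gene. Counted from the start, with the base before it as −1, the JUN site began at −67 (chr1:58784096-58784125, minus strand), that of ATF3 at −123 (chr1:212565273-212565302, plus strand), that of JUND at −200 (chr19:18281804-18281833, minus strand) and that of MAFF at −54 (chr22:38201929-38201958, plus strand). The deposited MAFF gene begins upstream of its site, at 38200767, so by that model the site lies inside the gene. JUN and ATF3 share the form TGACATCA, and JUND and MAFF the form TGACGTCA. FOS, FOSB and JUNB had no match to these motifs in the window. Both strands were searched, and of 35116 promoters of the same length 7.71% held the AP-1 site, 1.85% the cyclic AMP response element and 7.72% the letters TGACNTCA. The AHR element TNGCGTG, found in 5.51% of promoters, and the CArG box bound by serum response factor (CC, then 6 bases that are each A or T, then GG), found in 1.29%, matched none of the 8 windows. A match is a string of letters and was not tied to binding, and the absence of one says only that the letters are not in this window.

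The 2 genes of the family that are printed in full upstream are the ones whose mRNA is described at greatest length among those in the table, FOSL2 and JUN. Each run holds the 250 bases before the start.
FOSL2: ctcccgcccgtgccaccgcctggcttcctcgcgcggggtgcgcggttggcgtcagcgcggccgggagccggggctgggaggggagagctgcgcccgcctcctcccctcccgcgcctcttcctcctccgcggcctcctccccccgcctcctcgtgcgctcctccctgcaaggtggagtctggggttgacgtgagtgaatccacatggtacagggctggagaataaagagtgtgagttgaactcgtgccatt
JUN: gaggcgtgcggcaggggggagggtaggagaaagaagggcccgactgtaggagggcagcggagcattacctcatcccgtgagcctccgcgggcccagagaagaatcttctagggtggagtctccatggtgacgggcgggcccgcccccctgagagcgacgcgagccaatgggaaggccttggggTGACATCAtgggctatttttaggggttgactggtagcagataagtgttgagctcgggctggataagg

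The FOSL2 stretch is chr2:28392608-28392857 on the plus strand, and the deposited gene model begins upstream of it, at 28392448. The JUN stretch is chr1:58784048-58784297 on the minus strand, directly before the deposited gene (58780791 to 58784047), and its capitals mark the TGACATCA shown above.

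Expected counts, the estimated numbers of reads per gene from RSEM, summed to between 7844045 and 11765576 per library. Levels are given as CPM, counts scaled to a common library size with TMM, in which 3 counts, the limit that a count of 0 allows, are worth between 0.255 and 0.382 CPM. These limits cover counting error only. The introduced receptor was read as the summed level of AHR and of ENSG00000283321, a gene that overlaps it, which was 65.8 to 74.3 CPM for V, 450.4 to 479.9 CPM for WT, 371 to 407 CPM for SA and 289.6 to 305 CPM for SD, so the SD line carried less of it than WT or SA. Of 13 epithelial and A549 markers, 9 were over 1 CPM in every library, while EPCAM stayed under 1.75 CPM and KRT19, NKX2-1 and SFTPC at or under 0.536 CPM. Their summed level was 14492 to 14631 CPM in V and 11545 to 12169 CPM over the 9 libraries with introduced AHR, and KRT8, KRT18 and CDH1 were lower in each of the 3 AHR lines than in V (log2 fold changes from −0.33 to −0.60). Of 15 markers of other cell types, 9 stayed under 1 CPM in every library and 4 (CD3E, VWF, DES, HBB) were at 0 in all, while RBFOX3, CD14, ITGAX, SYP and ACTA2 were detected. RBFOX3 was at 23.0 to 28.2 CPM in V and 9.01 to 13.9 in the other lines. CD14 went the other way and was higher in SD than in V (log2 fold change 0.60, adjusted p = 0.00947 from edgeR). ITGAX was higher than in V in SA and in SD (0.91 and 1.01, adjusted p = 0.0405 and 0.0258 from edgeR). For each of these rises the adjusted p was over 0.05 without some single libraries. The part of these differences between V and the AHR lines in the results that follow was not tested, and in bulk RNA fewer cells of a type and less RNA per cell cannot be told apart.

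Divided by the length of its exons, FOSL2 had the highest level of the 10 genes in every line, at 48.3 to 72.8 CPM per kb over the 12 libraries. JUND followed with 32.5 to 46.9 CPM per kb. JUNB (13.8 to 21.2) and FOSL1 (11.4 to 22.4) overlapped each other, and JUN lay at 7.05 to 14.1. A wide gap came below JUN. BATF3 (1.12 to 2.37), FOS (1.05 to 2.54) and MAFF (0.874 to 1.65) overlapped in CPM per kb, ATF3 was at 0.379 to 1.05 and FOSB at 0 to 0.170. The A549 lines thus held mainly mRNA of FOSL2 and JUND, and little of the immediate early members FOS and FOSB.

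**Figure D1:**
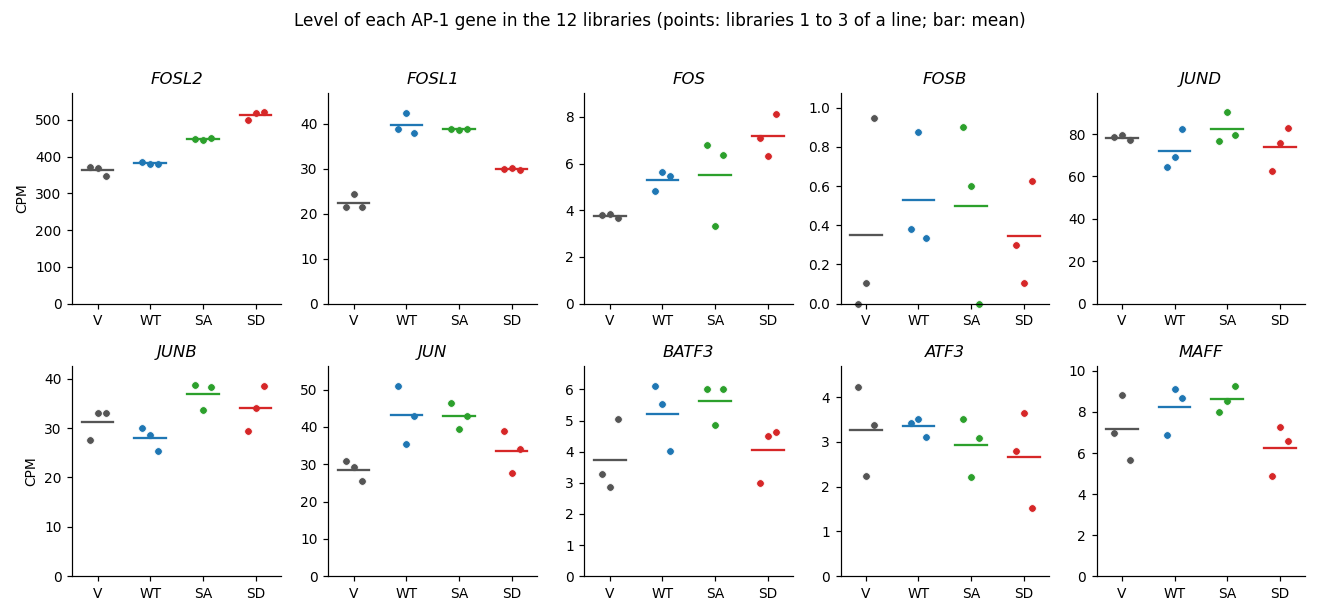
Level of each of the 10 AP-1 genes in CPM (vertical axis, starting at 0, a scale of its own in each panel) in the 3 libraries of V, WT, SA and SD, with the mean of a line as a bar. FOSL2 steps up from V to SD with little spread inside a line, FOSL1 is highest in WT and SA, and SA 2 lies apart from SA 1 and SA 3 in FOS.

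FOSL2, on the plus strand of chromosome 2 (28392448 to 28417317, GRCh38), encodes FRA-2. Its level was 371, 369.7 and 346 CPM in the 3 V libraries, 385, 379.9 and 379.6 in WT, 448, 445 and 449.6 in SA, and 499.6, 518 and 522 in SD. The order was V, WT, SA and SD, no 2 lines overlapped, and the distance from V to WT was the smallest of the steps. The mean was 362 ± 14.1 CPM for V, 382 ± 3.15 for WT, 448 ± 2.53 for SA and 513 ± 11.7 for SD (± standard deviation here and below, n = 3 each). On the log2 scale, the SD line exceeded WT by 0.43 (standard error 0.05), SA by 0.20 (0.05) and V by 0.50 (0.05). SA exceeded V by 0.30 (0.05), WT lay below SA by 0.23, a log2 fold change of −0.23 (0.04), and WT exceeded V by 0.07 (0.04). FOSL2 had the smallest spread of the 10 genes between libraries of a line, a mean coefficient of variation of 1.89%, and also the most counts, from 3032 to 5855.

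FOSL1, on the minus strand of chromosome 11 (65892049 to 65900573), encodes FRA-1. It was at 21.6, 24.3 and 21.5 CPM in V, 38.8, 42.3 and 38.0 in WT, 38.8, 38.7 and 38.9 in SA, and 29.9, 30.1 and 29.7 in SD. V was lowest, SD stood between V and the other 2 lines without overlap, and WT and SA overlapped. Means were 22.5 ± 1.60 CPM for V, 39.7 ± 2.31 for WT, 38.8 ± 0.0903 for SA and 29.9 ± 0.235 for SD (n = 3 each). Against V, the log2 fold change was 0.82 (standard error 0.09) in WT, 0.79 (0.09) in SA and 0.42 (0.10) in SD. SD lay below WT by −0.41 (0.09) and below SA by −0.37 (0.08), while WT against SA gave 0.04 (0.08). FOSL1 and FOSL2 thus took opposite directions between SD and the 2 other AHR lines.

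FOS, on chromosome 14 (75278826 to 75282230, plus strand), is the founding immediate early member. It was at 3.81, 3.82 and 3.68 CPM in V, 4.83, 5.62 and 5.46 in WT, 6.81, 3.33 and 6.36 in SA, and 7.11, 6.33 and 8.11 in SD, from 35 to 91 counts. SD was above WT and WT above V in every library, but SA 2 fell below all V libraries while SA 1 and SA 3 lay among those of SD, so SA has no clear place in the order. The mean rose from 3.77 ± 0.0758 CPM in V to 7.18 ± 0.892 in SD (n = 3 each), a log2 fold change of 0.93 (standard error 0.22). For SA against V it was 0.54 (0.26) with all libraries and 0.80 without SA 2. FOSB, on chromosome 19 (45467995 to 45475179), had 0, 1 and 9 counts in V, 3, 10 and 3 in WT, 9, 7 and 0 in SA and 3, 1 and 7 in SD. Its values spread within every line as widely as between lines. It did not pass the filter on low counts in any comparison, and the 2 counts of 0 (V 1 and SA 3) allow up to 0.307 and 0.266 CPM.

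JUN, a gene without introns on the minus strand of chromosome 1 (58780791 to 58784047), encodes the subunit for which the family was named. It was at 30.9, 29.3 and 25.6 CPM in V, 50.9, 35.5 and 42.9 in WT, 46.5, 39.5 and 43.0 in SA, and 38.8, 27.8 and 34.0 in SD. WT and SA overlapped and lay above V in every library, SD lay below SA and overlapped both WT and V. Against V, the log2 fold change was 0.58 (standard error 0.11) in WT, 0.59 (0.09) in SA and 0.24 (0.11) in SD, and it was −0.35 in SD against WT (0.12) and against SA (0.10). JUN spread more within a line than FOSL1 or FOSL2, with a mean coefficient of variation of 13.0%. Its means were 28.6 ± 2.72, 43.1 ± 7.75, 43.0 ± 3.48 and 33.5 ± 5.55 CPM in V, WT, SA and SD (n = 3 each).

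JUNB, on chromosome 19 (12791486 to 12793315, plus strand), often opposes JUN in growth control. Its level was 27.6, 33.0 and 33.0 CPM in V, 29.98, 28.5 and 25.3 in WT, 38.8, 33.7 and 38.2 in SA, and 29.3, 34.0 and 38.6 in SD. SA was above WT and above V without overlap, and SD overlapped all of the other lines. The log2 fold change of WT against SA was −0.40 (standard error 0.09), and the other 5 lay between −0.16 and 0.29. JUND, also on chromosome 19 (18279694 to 18281622, minus strand), is the member that most cells express steadily. It was at 78.4, 79.4 and 77.3 CPM in V, 64.4, 69.0 and 82.3 in WT, 76.6, 90.5 and 79.7 in SA, and 62.7, 75.8 and 82.7 in SD. All pairs of lines overlapped, and the 6 log2 fold changes lay between −0.20 and 0.07, with standard errors of 0.07 to 0.09.

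The last 3 genes were low. ATF3, on chromosome 1 (212565334 to 212620777), was at 1.51 to 4.22 CPM, and every pair of lines overlapped, with log2 fold changes from −0.35 to 0.20 and standard errors of 0.29 to 0.35. BATF3, on chromosome 1 (212686417 to 212699840), was at 3.29, 2.86 and 5.05 CPM in V, 6.10, 5.53 and 4.01 in WT, 6.01, 4.87 and 6.01 in SA and 3.00, 4.50 and 4.63 in SD. Only SD and SA did not overlap, with SD lower (log2 fold change −0.47, standard error 0.24). MAFF, on chromosome 22 (38200767 to 38216507), was at 6.99, 8.81 and 5.68 CPM in V, 6.86, 9.13 and 8.68 in WT, 8.02, 8.54 and 9.27 in SA and 4.90, 7.29 and 6.59 in SD, and again only SD lay apart from SA (−0.46, standard error 0.18). Exons of MAFF share 326 bases with PLA2G6, and those of JUNB 259 bases with HOOK2, both on the opposite strand. Whether counting used the strand is not given in the sources used here, so reads from these stretches cannot be told apart, and HOOK2 had 187 to 277 counts and PLA2G6 118 to 204.

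Since FOSL2 and FOSL1 compete for the same JUN partners, their proportion was computed within each library. Per kb of exon, FOSL2 exceeded FOSL1 by a ratio of 4.53, 4.01 and 4.25 in V, 2.62, 2.37 and 2.63 in WT, 3.05, 3.03 and 3.05 in SA, and 4.40, 4.53 and 4.63 in SD. WT was lowest and SA next, without overlap, and SD overlapped V. The overlapping proportions in V and SD came from different levels, since both genes were higher in SD than in V. FOSL1 made up 18.7% ± 0.927 of the FOS-family level per kb in V, and in the AHR lines 27.6% ± 1.16 (WT), 24.2% ± 0.229 (SA) and 17.7% ± 0.405 (SD) (n = 3 each). FOSL2 made up 79.4%, 70.1%, 73.6% and 79.8% in the same order, and FOS between 1.25% and 2.79% in any library.

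The summed FOS-family level was 63.7 ± 2.43 CPM per kb for V, 76.1 ± 1.25 for WT, 84.9 ± 0.963 for SA and 89.8 ± 1.70 for SD (n = 3 each). No 2 lines overlapped in this sum. The summed JUN-family level was 65.5 ± 1.56 CPM per kb for V, 64.4 ± 3.62 for WT, 74.7 ± 1.38 for SA and 66.0 ± 7.06 for SD. SA exceeded V and WT in every library, narrowly exceeded SD, whose highest library was at 73.3 against 73.7 for the lowest of SA, and the other lines overlapped. The ratio of FOS-family to JUN-family level was 0.973 ± 0.0344 for V, 1.18 ± 0.0847 for WT, 1.14 ± 0.0336 for SA and 1.37 ± 0.1204 for SD. JUND supplied 52.3% to 63.3% of the JUN-family level in any library, JUNB 20.2% to 28.7% and JUN 10.8% to 22.0%.

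**Figure D2:**
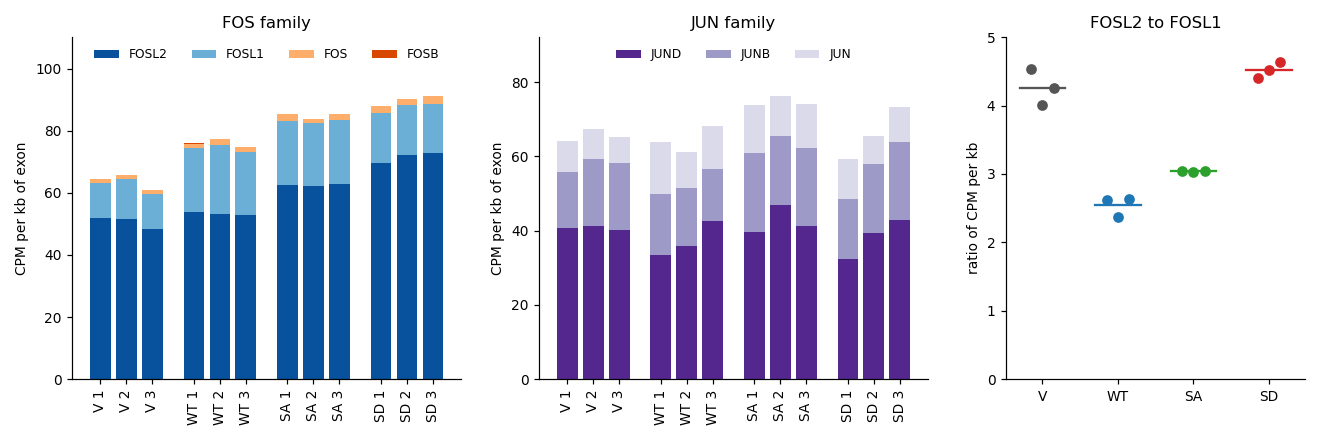
Left and middle, CPM per kb of exon of the FOS family and the JUN family in each of the 12 libraries as stacked bars (vertical axes start at 0); right, the ratio of FOSL2 to FOSL1 per kb in each library, with the mean of a line as a bar. FOSL2 and JUND fill most of every bar, and the ratio is lowest in WT, at 2.37 to 2.63.

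The lines were compared in pairs by edgeR's quasi-likelihood test over all genes, and a gene with an adjusted p under 0.05 is said to be called. In each comparison 9 of the 10 genes passed the filter on low counts, and comparisons that name the same line share its libraries. Against V, the genes called were FOSL1 and JUN in WT (2 of 9, where 5.24% of all genes tested were called), FOSL1, FOSL2 and JUN in SA (3 of 9, 7.17% of all genes), and FOS, FOSL1 and FOSL2 in SD (3 of 9, 5.41% of all genes). All 8 of these were higher than in V. The call of FOS in SD was lost without SD 3 (log2 fold change 0.83) and that of FOSL1 in SD without V 1 or V 3 (0.39 and 0.38), whereas the others held with any 1 library left out.

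Between SD and WT, FOSL2 was called as higher and FOSL1 as lower in SD (2 of 9, 0.708% of all genes). FOSL2 kept its call with any 1 library left out, and FOSL1 lost its call without WT 1, WT 2, WT 3, SD 1 or SD 2, with log2 fold changes from −0.44 to −0.36. Between SD and SA none of the 9 was called by edgeR (0.220% of all genes), while 4 had an unadjusted p under 0.05 and DESeq2 called 1, FOSL2. Between WT and SA, FOSL2 was called as lower in WT (1 of 9, 0.0803% of all genes), and the call was lost without any 1 of WT 1, WT 2, WT 3, SA 2 or SA 3 (log2 fold changes from −0.24 to −0.22). These shares describe genes chosen with the same comparisons in view and nothing is read from their distance to the share over all genes.

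Counting instead the members whose 3 libraries in one line all lay above or all below the 3 of the other, WT had 4 above V (FOS, FOSL1, FOSL2, JUN), where 21.9% of all genes tested were apart in one direction or the other. SA had 4 above V (FOSL1, FOSL2, JUN, JUNB; 23.8% of all genes) and SD 3 (FOS, FOSL1, FOSL2; 21.4%). SD had 2 above WT (FOS, FOSL2) and 1 below it (FOSL1), where the share was 16.0%. SD had 1 above SA (FOSL2) and 4 below it (FOSL1, JUN, BATF3, MAFF), where it was 13.7%. WT had 2 below SA (FOSL2, JUNB), where it was 12.8%. Taken over the 9 members, the median of the log2 fold changes was 0.21, 0.30 and 0.13 in WT, SA and SD against V, −0.35 in SD against WT, −0.16 in SD against SA and −0.06 between WT and SA. Over all genes the median lay between −0.002 and 0.003.

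**Figure D3:**
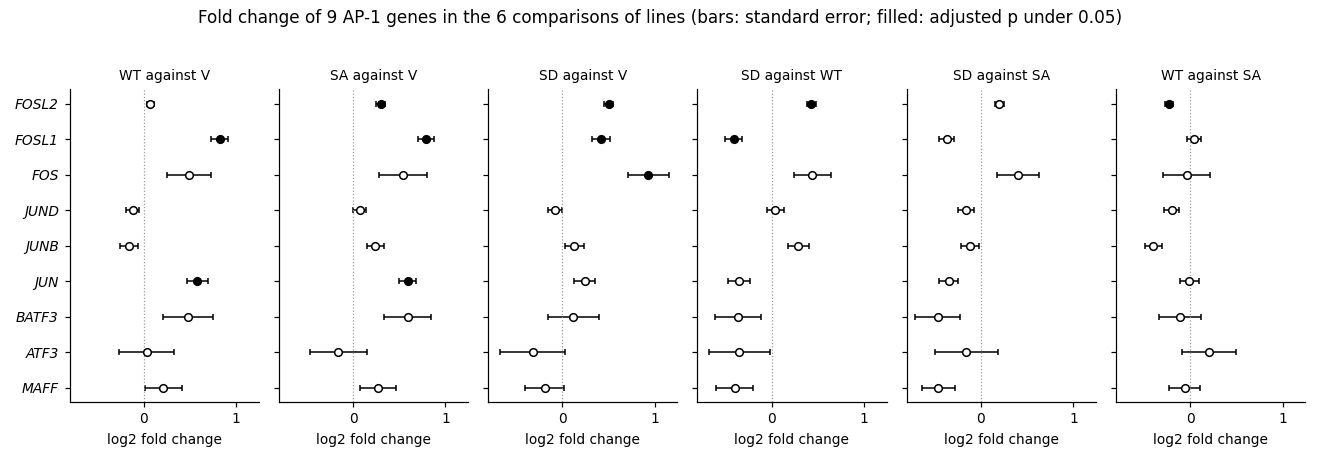
Log2 fold change (horizontal axis) of the 9 AP-1 genes tested in each of the 6 comparisons of lines, with standard errors as bars and filled points for an adjusted p under 0.05 from edgeR. FOSL1 lies right of 0 in all 3 comparisons against V and left of it in SD against WT and SD against SA, where FOSL2 lies right of 0.

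For FOSL1, JUN and FOS, the 3 genes with the most similar pattern were named out of 14416 genes tested in every comparison, by Pearson's r of log2(CPM + 0.5) over the 12 libraries. These libraries come from 4 lines, so the values rest largely on differences between lines and are a description. For FOSL1 they were KCNMA1, a potassium channel (r = 0.972), AXL, a receptor tyrosine kinase (0.970), and MT2A, a metallothionein (0.958). AXL had mean levels of 288 CPM for V, 454 for WT, 452 for SA and 382 for SD. For JUN they were DTYMK, thymidylate kinase (0.935), CCN1, a secreted matrix protein (0.921), and MYH9, a non-muscle myosin (0.909). For FOS they were HHIPL2 (0.916), DHRS9 (0.909) and TSPAN9 (0.906), of which DHRS9 was low, with mean levels of 1.22 to 2.38 CPM. All 3 had in SA 2 the lowest of their SA values, as FOS had. They were picked for likeness to FOS over libraries that include SA 2, so this likeness is no separate support.

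**Figure D4:**
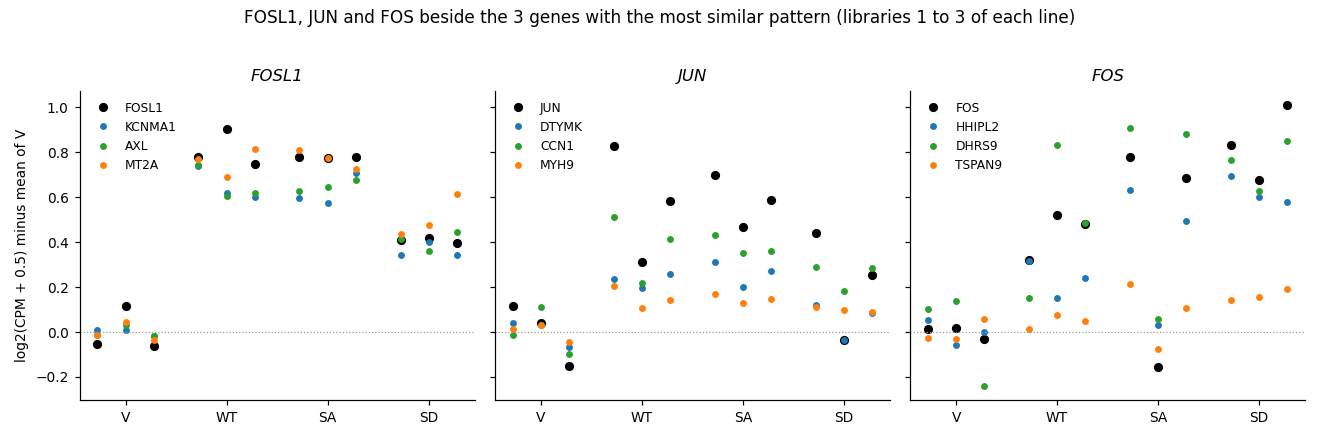
Log2(CPM + 0.5) minus the mean of V (vertical axis) for FOSL1, JUN and FOS (black) and the 3 genes most similar to each (colours), with 1 point per library in the order 1 to 3 within V, WT, SA and SD. The FOSL1 group rises in WT and SA and stands between these and V in SD, and in SA 2 the FOS group drops to about the V values.

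Genes around AP-1 were read from lists that were not picked for how they moved, though the lists were drawn up with earlier results of these libraries known. The count of each list is set beside the share of all genes tested that were called in the same comparison. The first held 26 other basic leucine zipper proteins, the possible partners. In the 3 comparisons between AHR lines (SD against WT, SD against SA, WT against SA), 0 of 22 tested were called by edgeR or by DESeq2, with 0, 1 and 5 at an unadjusted p under 0.05. Against V, 2 of 21 were called in WT, 3 of 22 in SA and 2 of 21 in SD (9.52%, 13.6% and 9.52%, where 5.24%, 7.17% and 5.41% of all genes were called), with 1 in WT without V 2 or WT 3 and 1 in SD without V 1, V 3 or SD 2. MAFK, a small MAF protein like MAFF, fell in all 3 AHR lines, from 226 to 252 CPM in V to 136 to 175 CPM in the 9 other libraries. Its log2 fold changes were −0.69 in WT, −0.58 in SA and −0.63 in SD (standard error 0.06 each, adjusted p = 4.84e-09, 1.34e-07 and 3.31e-08 from edgeR), and each call held with any 1 library left out. CREB3L1, a membrane-bound factor of the secretory pathway, had 17 to 20 counts in V and rose in SA by 1.60 (0.27, adjusted p = 0.000263 from edgeR). In WT its log2 fold change was 1.00 (0.33, adjusted p = 0.0784, not called). In SD CREB3L1 was called higher (1.09, 0.31, adjusted p = 0.0344 from edgeR). That call was lost without V 1, V 2, V 3, SD 2 or SD 3, under DESeq2 and with the replicate block. NFE2L3 was higher in WT (0.36, adjusted p = 0.00851) and CEBPG lower in SA (−0.24, adjusted p = 0.0157), and both calls were lost with some single libraries left out (V 2 or WT 3 for NFE2L3, and V 1, V 3 or SA 2 for CEBPG). The median of the list lay between −0.01 and 0.05 in the 6 comparisons.

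Immediate early genes other than FOS and JUN moved in both directions. Of 22 tested, 11 were called in WT against V (5 higher, 6 lower), 10 in SA (7 higher, 3 lower) and 10 in SD (8 higher, 2 lower), with medians of 0.05, 0.18 and 0.06. These were 50%, 45.5% and 45.5% of the list, beside 5.24%, 7.17% and 5.41% of all genes. With single libraries left out the counts were 7 to 8, 6 to 11 and 5 to 8. The lowest counts came without V 2, V 3 or any WT library (7) in WT, without SA 2 (6) in SA, and without V 2 or V 3 (5) in SD. EGR1, which responds to the same signals as FOS, was at 3.91, 2.23 and 3.79 CPM in V, 5.46, 7.11 and 6.90 in WT, 6.41, 3.76 and 5.30 in SA and 7.21, 4.40 and 9.71 in SD. SA 2 was the lowest SA library for EGR1 as for FOS, and lay inside the range of V for EGR1 and below that range for FOS. Against V, EGR1 was called by edgeR in WT (log2 fold change 0.98, standard error 0.25, adjusted p = 0.0178) and SD (1.11, 0.27, adjusted p = 0.0132). The first was lost without V 2, WT 2 or WT 3 (adjusted p = 0.0806 to 0.0922) and the second without V 2 or SD 3 (0.0908 to 0.141). IER2, another gene of the immediate early response, differed from V in the opposite direction to EGR1. It was at 72.5 to 84.6 CPM in V, 61.6 to 72.1 in WT, 69.8 to 83.8 in SA and 66.8 to 75.4 in SD, and was called lower in WT than in V (−0.26, standard error 0.07, adjusted p = 0.0325 from edgeR). That call was lost without V 2, V 3, WT 1 or WT 2 (adjusted p = 0.0708 to 0.174), under DESeq2, in the fit of all 12 libraries and with the replicate block. CCN2, a secreted matrix protein, rose in WT, SA and SD (0.60, 0.63 and 0.84, adjusted p = 0.00933, 0.00558 and 0.000300 from edgeR), and the call in WT was lost without V 3 (adjusted p = 0.0690). NR4A1, an orphan nuclear receptor, was called lower in SD (−0.33, adjusted p = 0.0213 from edgeR), a call lost without V 2, V 3, SD 2 or SD 3 and with the replicate block. NR4A1 also fell by 0.44 in WT and by 0.48 in SA (adjusted p = 0.000681 and 0.000595), and each of these calls held with any 1 library left out. TSC22D1 was higher in WT, SA and SD (0.29, 0.32 and 0.34, adjusted p = 0.000317, 8.99e-05 and 0.000216 from edgeR), and ZFP36L1, a protein that binds AU-rich mRNA, in SA and SD (0.37 and 0.28, adjusted p = 9.58e-06 and 0.00194), and these calls too held.

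PTGS2, the inducible cyclooxygenase, was the only gene of this list called between AHR lines. It was at 167, 147 and 164 CPM in V, 97.6, 120.3 and 110.1 in WT, 114, 86.1 and 97.9 in SA, and 159, 138 and 133 in SD. SD was above WT and SA in every library and overlapped V. Against V, PTGS2 was called lower in WT (−0.54, adjusted p = 9.35e-07 from edgeR) and in SA (−0.69, adjusted p = 3.10e-07). Both calls held with any 1 library left out, and SD against V was not called (−0.15, adjusted p = 0.220). On the log2 scale SD exceeded WT by 0.38 (0.07 standard error, edgeR adjusted p = 0.0103) and SA by 0.53 (0.09, adjusted p = 0.00630). Without WT 1 or SD 1 the first adjusted p was 0.121 and 0.0537, and without SA 2 the second was 0.0851. In WT against SA, 0 of the 22 genes were called by edgeR, 1 by DESeq2, and 5 had an unadjusted p under 0.05.

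Upstream of AP-1, 28 kinases and ternary complex factors of the MAPK pathways were read. Called against V were 1 of 28 in WT, 1 in SA and 0 in SD (3.57%, 3.57% and 0%), where 5.24%, 7.17% and 5.41% of all genes were. MAP2K6, a kinase that activates p38, was the gene called, lower than in V both in WT (log2 fold change −0.31 with a standard error of 0.07, edgeR adjusted p = 0.00783) and in SA (−0.32 with 0.08, adjusted p = 0.0108). Both calls were lost without V 3 and the second also without SA 1 (adjusted p = 0.0586 to 0.0853). In the other 4 comparisons 0 of 28 were called by edgeR or DESeq2, with 2 (SD against V), 2 (SD against WT), 1 (SD against SA) and 1 (WT against SA) at an unadjusted p under 0.05. Among the genes that report MAPK activity through feedback, DUSP6 and DUSP1 were not called in any comparison. DUSP6, a phosphatase that reports ERK activity, was at 8.10 to 10.2 CPM in V, 9.80 to 11.7 in WT, 8.92 to 11.02 in SA and 9.97 to 12.8 in SD, and its log2 fold changes against V were 0.31, 0.17 and 0.38 (adjusted p = 0.352, 0.634 and 0.220 from edgeR). Of the 21 feedback genes tested, 1 was called in WT against V (lower), 2 in SA (1 higher, 1 lower) and 2 in SD (1 higher, 1 lower), which is 4.76%, 9.52% and 9.52% beside 5.24%, 7.17% and 5.41% of all genes. PHLDA1 was the higher one, in SA (0.33, standard error 0.05, adjusted p = 2.20e-05 from edgeR), where the call held with any 1 library left out, and in SD (0.23, 0.05, adjusted p = 0.00824), where it was lost without V 1 or V 2. DUSP5, a phosphatase of ERK, was lower than in V both in WT (−0.25, 0.07, adjusted p = 0.0360) and in SD (−0.44, 0.08, adjusted p = 0.000384 from edgeR), and the call in SD held with any 1 library left out. That in WT was lost without V 1, V 2, V 3, WT 1 or WT 3. DESeq2, the fit of all 12 libraries and the replicate block did not call it either. DUSP8 was lower in SA (−1.26, 0.30, adjusted p = 0.00838), a call lost without V 1. Between AHR lines 0, 1 (DUSP5, lower, −0.40, adjusted p = 0.0469 from edgeR) and 0 were called in SD against WT, SD against SA and WT against SA. Leaving out V 1 lowered each of the 3 counts against V, to 0, 1 and 1, the count in WT was also 0 without V 2, V 3, WT 1 or WT 3, and that in SD against SA was 0 without SA 2, SA 3, SD 1 or SD 2. The comparisons with 0 had 4 and 6 genes at an unadjusted p under 0.05, and DESeq2 called 0 and 1.

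Downstream, 39 genes known as AP-1 targets were read. Against V, 19 of 30 tested were called in WT (13 higher, 6 lower), 17 of 30 in SA (14 higher, 3 lower) and 13 of 31 in SD (10 higher, 3 lower), with medians of 0.19, 0.20 and 0.14. These were 63.3%, 56.7% and 41.9% of the targets tested, beside 5.24%, 7.17% and 5.41% of all genes. With single libraries left out the counts were 14 to 17, 15 to 17 and 12 to 17. Of the 10 epithelial and A549 markers tested, 50%, 50% and 70% were called in the same comparisons, and of the MAPK kinases 3.57%, 3.57% and 0%. A share above that of all genes was thus not particular to the AP-1 targets. MMP2, a gelatinase, was at 6.58 to 8.42 CPM in V, 15.01 to 18.4 in WT, 14.2 to 17.7 in SA and 23.6 to 25.3 in SD, above V in every library of the other lines. TNC, the matrix protein tenascin C, rose in WT, SA and SD by 1.07, 0.89 and 1.05 on the log2 scale (standard errors 0.10, 0.10 and 0.11, adjusted p = 1.85e-08, 4.24e-07 and 5.76e-07 from edgeR). EREG, an EGF receptor ligand, rose by 0.49, 0.38 and 0.47 (adjusted p = 2.76e-07, 2.81e-05 and 5.76e-06). HMOX1, heme oxygenase, went the other way and fell by 0.48, 0.45 and 0.35 (adjusted p = 4.98e-07, 3.28e-06 and 0.000384). The calls of TNC, EREG and HMOX1 against V held with any 1 library left out.

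Following the order of FOSL1, MT2A was at 66.7 to 70.6 CPM in V, 110 to 120 in WT, 113 to 120 in SA and 92.7 to 105 in SD, and its log2 fold changes against V were 0.76, 0.77 and 0.52 (adjusted p = 7.32e-10, 1.03e-09 and 8.61e-06 from edgeR). SD against WT and SD against SA were not called for MT2A (−0.25 and −0.26, adjusted p = 0.0784 and 0.136 from edgeR). MT2A was among the genes picked above for likeness to FOSL1, so this order is no separate support. VEGFA, the angiogenic growth factor, followed the order of FOSL2, at 60.8 to 67.2 CPM in V, 73.5 to 83.7 in WT, 82.8 to 87.8 in SA and 89.1 to 100.7 in SD, with the libraries of WT and SA overlapping. Its call in SD against WT (0.29, adjusted p = 0.0452 from edgeR) was lost with any 1 library left out (adjusted p = 0.0559 to 0.210). SD against SA was not called (0.17, adjusted p = 0.478), and the call in WT against V was lost without V 1 or WT 1. Between AHR lines, 3 of 31 targets were called in SD against WT and 1 of 31 in SD against SA, all higher in SD. These shares were 9.68% and 3.23%, where 0.708% and 0.220% of all genes were called. MMP2 was among both, with log2 fold changes of 0.54 and 0.63 (adjusted p = 0.0215 and 0.0154 from edgeR), the first lost without WT 2, WT 3, SD 1 or SD 2 (adjusted p = 0.0535 to 0.122) and the second without SA 2 or SA 3 (0.0682 to 0.163). The count in SD against WT fell to 1 without WT 2, WT 3 or SD 2, and that in SD against SA was 0 without SA 2 or SA 3, 2 without SD 3 and 3 without SD 1. In WT against SA, 0 of 30 targets were called by edgeR and 1 by DESeq2, with 6 at an unadjusted p under 0.05.

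**Figure D5:**
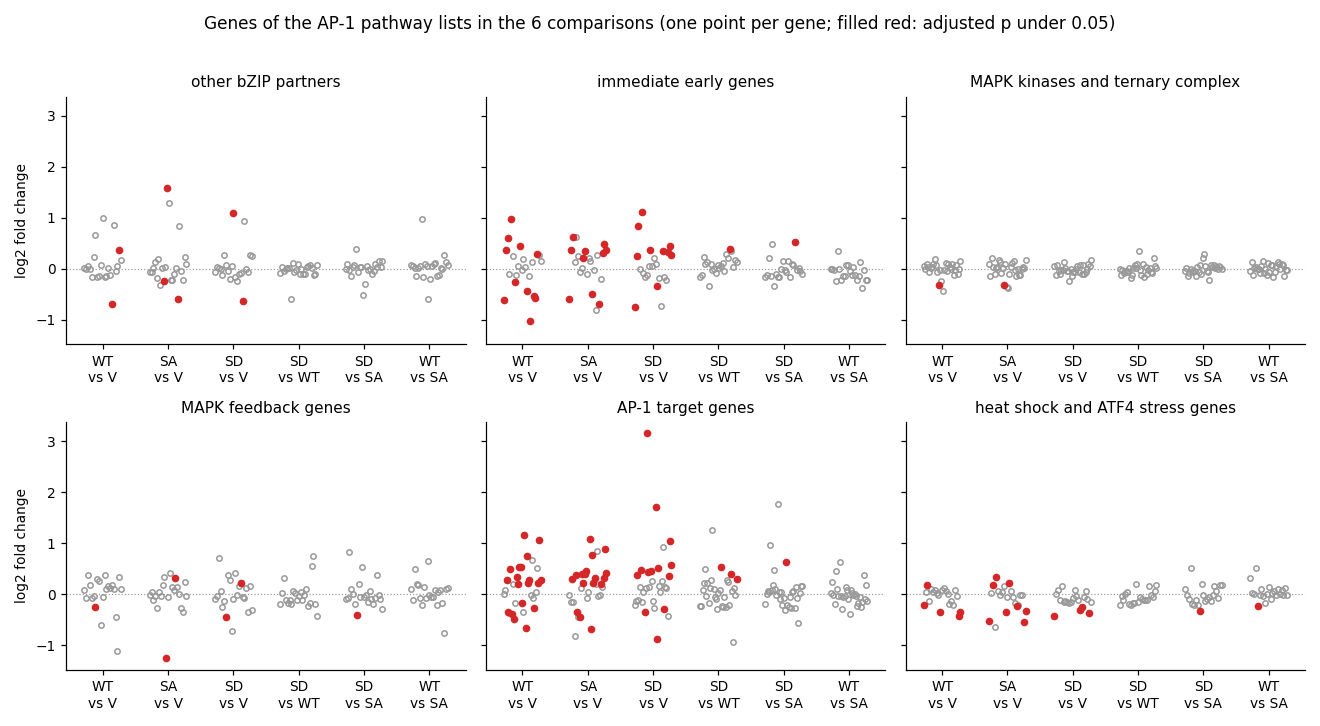
Log2 fold change (vertical axis) of each tested gene of 6 lists in the 6 comparisons of lines (horizontal axis), with 1 point per gene, open grey where the adjusted p from edgeR was 0.05 or more and filled red where it was under 0.05. Filled points gather in the 3 comparisons against V among the immediate early genes (11, 10 and 10 of 22 in WT, SA and SD) and the AP-1 targets, and the MAPK kinases hold 1, 1 and 0 of 28.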

How the data were processed

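RNA of 12 libraries (V, WT, SA and SD, 3 each) was sequenced. The authors trimmed the reads with Trimmomatic 0.39 and counted them with RSEM on GRCh38, and the estimated counts per gene (expected counts) were deposited without normalization. Versions of RSEM and of the annotation are not given in the sources used here. Another deposited table holds only the authors' own fold changes and p-values and was not used.

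Expected counts were rounded and fitted in R 4.3.3 with edgeR 4.0.16 (filterByExpr with minimum count 10 and minimum total 15, TMM, quasi-likelihood test, two-sided), each pair of lines on its own 6 libraries. P-values were adjusted by Benjamini-Hochberg over all genes tested. CPM used TMM-scaled totals, and length was the union of exons in GENCODE 44. Deposited coordinates matched that release for 88.7% of 60295 shared genes. JUN was not among these, so its length is that of a longer model. Within a line no library was a copy of another, and pairs from different lines were not checked for this. The tests were checked on simulated counts. P-values set the difference between a pair of lines against the spread between their labelled biological replicates, with 1 line for each construct.

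The members and gene lists were chosen with earlier results of these data known. Named are the 10 members, at most 6 genes per list (marker lists apart) by smallest adjusted p among those called, the 3 genes most similar to FOS, FOSL1 and JUN, AHR with ENSG00000283321, and EGR1, IER2, DUSP1 and DUSP6. HOOK2 and PLA2G6 are named for their overlap, and markers as checks. Alternatives were 2 other count filters, DESeq2's size factors, DESeq2, a single fit of all 12 libraries, a block for the replicate number, and each library left out. Promoters are from RefSeq. Figures were drawn with matplotlib.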

Additional observations from a re-analysis of the deposited data

How the results depend on the processing

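No called member changed direction under the alternatives, but calls did not all hold, and FOSL1 in SD against WT lost its call in 5 of the 6 fits that left out 1 library. With every gene of at least 1 count tested, genes called were 252 in SD against WT, 153 in SD against SA, and 103 between WT and SA, and members called were 2 in SD against SA (FOSL1, JUN) and 2 when WT was set against SA (FOSL2, JUNB). DESeq2 called 1 member in SD against SA (FOSL2). With all 12 libraries in one fit, 1 member was called in SD against SA (FOSL1), and 5 genes and 0 members in WT against SA, where the fit on 6 libraries had FOSL2. With the replicate number as a block, genes called were 245 in SD against WT, 165 in SD against SA, 25 in WT against SA and 507 in WT against V, and members called were 3 in SD against SA (FOSL1, FOSL2, JUN). Libraries of one number correlated in their deviations by −0.17 to 0.27 over 10273 genes, with values of 0.1 or less in every comparison. Between AHR lines the values were all above 0, at 0.07 to 0.27. Only for the pairs SD with WT and WT with SA did all 6 libraries correlate best with their own number. For SD with SA 4 of 6 did. Whether libraries of one number shared a batch was not tested, and the main fits did not include the number. The block called JUN in SD against WT as well, and moved the immediate early genes called from 11 to 7 in WT and from 10 to 6 in SD against V. With single libraries left out, genes called were 45 to 145 in SD against WT, 11 to 56 in SD against SA, 2 to 25 in WT against SA, 434 to 720 in WT against V, 621 to 1195 in SA against V and 502 to 856 in SD against V. Members called were then 1 to 2, 0 to 0, 0 to 1, 2 to 2, 3 to 3 and 2 to 3 in the same order. The cause of these shifts was not tested. Depth limits FOSB (0 to 10 counts), ATF3, BATF3 and FOS most.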

Other observations

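Genes of the heat shock and ATF4 stress programmes, to which ATF3 belongs, were read from a list of 21. Against V, 5 were called in WT (1 higher, 4 lower), 8 in SA (3 higher, 5 lower) and 4 in SD (0 higher, 4 lower), or 23.8%, 38.1% and 19.0% beside 5.24%, 7.17% and 5.41% of all genes, with 2 to 5, 5 to 8 and 3 to 6 when single libraries were left out. The counts were 2 in WT and 5 in SA without V 1, and 3 in WT without V 2 or WT 3. ASNS, asparagine synthetase, fell by 0.53 in SA and by 0.42 in SD (adjusted p = 5.93e-06 and 0.000375 from edgeR), and HSPA5, the chaperone BiP of the endoplasmic reticulum, fell by 0.35 in both WT and SA (adjusted p = 1.23e-06 and 6.47e-06). VLDLR, a lipoprotein receptor that ATF4 is known to raise, fell by 0.43, 0.55 and 0.37 in WT, SA and SD (adjusted p = 0.00105, 4.76e-05 and 0.00473). DDIT4, a stress-induced inhibitor of mTOR signalling, rose by 0.34 in SA (adjusted p = 1.40e-05). PSAT1, of serine synthesis, fell by 0.24 in SA and by 0.26 in SD (adjusted p = 0.00527 and 0.00346). These calls held with any 1 library left out. ASNS was also called lower in WT (−0.20, adjusted p = 0.0427 from edgeR). That call was lost without V 1, V 2, V 3, WT 2 or WT 3, under DESeq2, in the fit of all 12 libraries and with the replicate block. HSPB1, a small heat shock protein, was higher in SA (0.21, adjusted p = 0.00551), a call lost without V 1 and in the fit of all 12 libraries. The median of the list against V lay between −0.12 and 0. In SD against WT, 0 of 21 were called by edgeR and 1 by DESeq2, with 10 at an unadjusted p under 0.05.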
